A study of Mus musculus with 41 samples.

Results

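Imprinted growth regulators are the subject here: 10 genes, taken from a mouse expression table by their symbols (Grb10, Igf2r, H19, Igf2, Peg10, Peg3, Plagl1, Zdbf2, Mest and Sgce). All 10 were among the 34591 genes of the table. An imprinted gene is transcribed mainly from the copy inherited from one parent. Many imprinted genes act on growth of the embryo and placenta: the ligand Igf2 and several paternally expressed genes promote it, whereas maternally expressed genes such as Igf2r and H19 restrain it. In the brain imprinting can differ from that in other tissues, and Grb10 is a textbook case, being expressed from the maternal copy in most tissues and from the paternal copy in neurons. Imprinted domains often hold several genes that share a control region, so neighbors are described beside the members.

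RNA sequencing covered 41 libraries in 6 groups. The mice carried a knock-in in which Cre recombinase removes a stop cassette and so switches on a tagged histone H3.3, either with lysine 27 changed to methionine (K27M-Tag) or with the normal sequence (WT-Tag). There were 20 brainstem tumors with the H3f3aLSL-K27M-Tag/+ allele and 9 with H3f3aLSL-WT-Tag/+, and the tumors of both groups also carried a Nestin-creERT2 driver together with LSL-PDGFRαV544ins, a mutant growth factor receptor, plus loss of p53 through Trp53flox/flox. Neurospheres, which are balls of neural precursors grown in suspension, were made from hindbrain and forebrain of e15.5 embryos with Nestin-cre and either H3f3a knock-in, and there were 3 K27M-Tag and 3 WT-Tag libraries of each region. The WT-Tag tumors thus share the receptor mutation and the p53 loss with the K27M-Tag tumors, and the labels give neither change for the cultures. Both drivers use Nestin regulatory sequence, which is active in neural stem and progenitor cells. For the tumor-bearing mice the labels give no age.

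The hindbrain and forebrain cultures share 6 culture letters, so the 12 culture libraries stand for 6 letters, 1 of each region per letter, and p-values measure the spread between these samples. In experiment 3 the K27M-Tag cultures were labelled female and the WT-Tag cultures male, while experiments 1 and 2 were all female. WT-Tag tumor 8, labelled female, had 0.031 FPKM of Xist and 3.44 FPKM of Ddx3y, and WT-Tag tumor 9, labelled male, had 54.5 and 0.003 FPKM, so both libraries go against their sex labels. K27M-Tag tumor 14, labelled female, had 1.90 FPKM of Xist. FPKM, the unit of the table, is a read density: fragments counted for a gene, divided by transcript length and by library size. It can be compared between genes, and a change of one abundant transcript moves all others slightly. Absolute depth is unknown, and relative depth read from the steps between low values spanned 0.551 to 1.54 times that of the median library. In these bulk samples fewer cells of a type and less RNA per cell cannot be told apart. The neural progenitor markers summed to 2103.9 FPKM or more in every culture, and all 10 markers of microglia and macrophages stayed under 1 FPKM in each of the culture groups. Hindbrain identity markers summed to at most 1.245 FPKM in K27M-Tag hindbrain cultures and to between 2.84 and 11.1 FPKM in WT-Tag hindbrain cultures, with forebrain cultures at or under 0.183 FPKM.

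The start regions of Grb10 and Zdbf2 are printed first, because these are the members that changed in the cultures of both regions. Both genes are known to have alternative starts in mice. RefSeq windows of 300 bases around annotated starts (build GRCm38.p6) were available for 7 of the 10 members, in 14 windows. Capitals mark CpG dinucleotides, the sites of DNA methylation in mammals, and all sequences run 5′ to 3′ on the gene's own strand. The windows are chr11:12037371-12037670 and chr11:12027922-12028221 on the minus strand for Grb10, and chr1:63200108-63200407 and chr1:63273019-63273318 on the plus strand for Zdbf2.
Grb10 window 1: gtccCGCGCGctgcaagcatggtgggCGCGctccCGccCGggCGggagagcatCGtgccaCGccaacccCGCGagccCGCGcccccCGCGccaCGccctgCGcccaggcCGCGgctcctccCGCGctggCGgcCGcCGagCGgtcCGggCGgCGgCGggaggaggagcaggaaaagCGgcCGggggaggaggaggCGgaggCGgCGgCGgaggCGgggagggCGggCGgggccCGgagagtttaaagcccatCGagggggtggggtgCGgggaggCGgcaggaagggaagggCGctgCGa
Grb10 window 2: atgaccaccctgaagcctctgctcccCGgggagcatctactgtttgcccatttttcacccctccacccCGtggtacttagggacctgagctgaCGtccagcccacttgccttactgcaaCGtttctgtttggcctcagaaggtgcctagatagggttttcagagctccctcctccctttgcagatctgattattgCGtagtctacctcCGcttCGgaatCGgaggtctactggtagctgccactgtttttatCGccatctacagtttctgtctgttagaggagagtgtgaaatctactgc
Zdbf2 window 1: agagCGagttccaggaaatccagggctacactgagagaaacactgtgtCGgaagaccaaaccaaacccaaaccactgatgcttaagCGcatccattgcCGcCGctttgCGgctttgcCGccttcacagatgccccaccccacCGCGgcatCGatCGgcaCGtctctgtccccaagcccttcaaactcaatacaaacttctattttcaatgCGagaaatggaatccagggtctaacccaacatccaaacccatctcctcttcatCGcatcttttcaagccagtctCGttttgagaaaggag
Zdbf2 window 2: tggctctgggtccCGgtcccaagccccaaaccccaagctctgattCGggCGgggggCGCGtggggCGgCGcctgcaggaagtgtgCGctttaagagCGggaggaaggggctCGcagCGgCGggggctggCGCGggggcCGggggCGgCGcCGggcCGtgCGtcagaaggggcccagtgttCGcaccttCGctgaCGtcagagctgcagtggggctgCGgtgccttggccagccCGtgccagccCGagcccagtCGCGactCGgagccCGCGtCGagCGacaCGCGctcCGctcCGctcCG
Grb10 window 1 held 45 CpG and window 2 held 9, against a median of 7 over 32851 windows, and 98.1% and 54.2% of windows held fewer. Zdbf2 window 1 held 15 CpG and window 2 held 38. The motif TGCCGC, the core shared by binding sites of the imprinting factor ZFP57, was searched on both strands and occurred in 6 of the members' 14 windows, against 11.6% of all windows. A pair of Mest windows shares nearly all its bases and the same matches, and with overlapping windows counted once the motif occurred in 5 of 13. It lay 3 times in Zdbf2 window 1 and once in Grb10 window 1. The motif itself holds a CpG, and 56.5% of all windows held under 10 CpG. The share of the members and that of all windows were not matched for CpG content. The longer palindrome GGGGCCCC occurred in 1 window of the members, that of Peg3, and in 1.08% of all windows. A match describes these letters, not a bound site, and the expression table does not say which start a transcript used.

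In hindbrain neurospheres 7 of the 9 members that could be tested were higher with K27M-Tag, in forebrain neurospheres 2 were, and in tumors none of 10 differed past the threshold. Differences were fitted with limma on log2(FPKM + 1) over all genes that reached 1 FPKM in enough libraries, and a gene is called changed where the Benjamini-Hochberg adjusted p is under 0.05. Igf2 did not reach 1 FPKM in the cultures. Zdbf2 reached 1 FPKM only in K27M-Tag cultures and Plagl1 mainly there, so both entered the tests through the group where they were high. The 7 hindbrain calls stand beside 8.42% of 13190 genes called higher in the same comparison, and the 2 forebrain calls beside 0.182%. The members and all gene lists were chosen with earlier results of these data known. Such shares therefore give a background and do not test an excess. In tumors 0.0846% of 15360 genes were called in either direction. With limma, 3 members had an unadjusted p under 0.05 in tumors, Zdbf2, Plagl1 and Mest. Every K27M-Tag library lay above every WT-Tag library for 7 members in hindbrain cultures, where 16.9% of tested genes did so, and for 6 members in forebrain cultures, where 15% did. The median log2 change over the tested members was 0.82 in hindbrain cultures, 0.29 in forebrain cultures and 0.06 in tumors, and the median over all tested genes was 0.09, 0.04 and -0.01. With each library scaled to the same median, the hindbrain calls over all genes were 975 higher and 1013 lower, in place of 1111 and 676, and Plagl1 and Sgce were no longer called. Fitted on hindbrain libraries alone, Grb10 was still called, H19, Igf2r and Peg10 had adjusted p of 0.0615, 0.0572 and 0.0661, and Zdbf2 did not pass the filter on low values. Without experiment 3 the same 3 genes had adjusted p of 0.141, 0.123 and 0.126, and Grb10 of 0.0468.

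**Figure D1:**
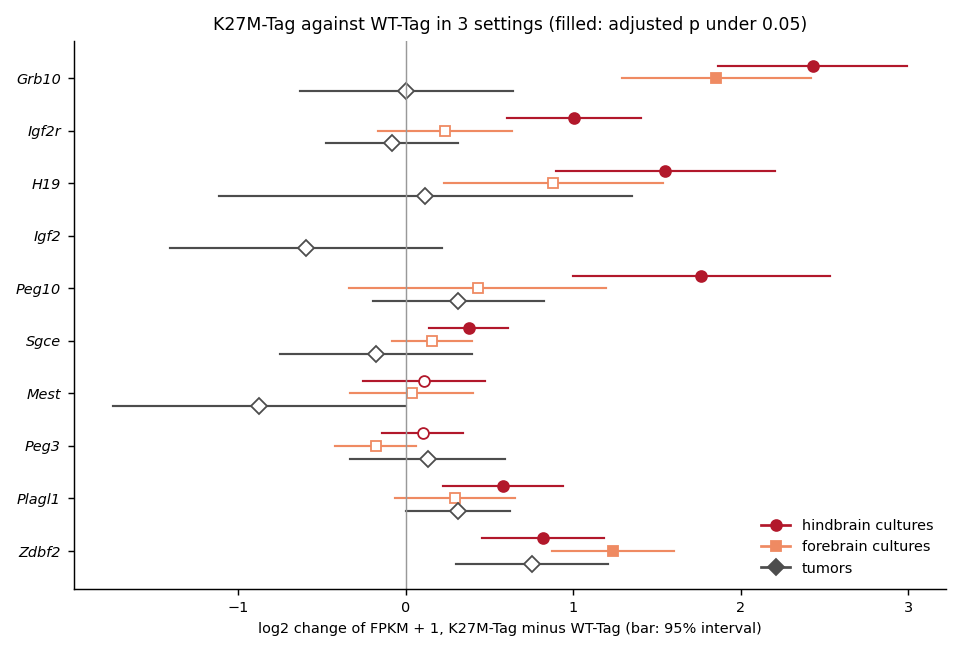
Log2 change of FPKM + 1, K27M-Tag minus WT-Tag, for the 10 members in hindbrain cultures (circles), forebrain cultures (squares) and tumors (diamonds), with 95% intervals and filled symbols where the adjusted p was under 0.05. Grb10 and Zdbf2 are filled for both culture regions, 5 more members for hindbrain cultures, and none for tumors; Igf2 was not tested in cultures.

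Other measured properties of the cultures moved with the same contrast. In hindbrain cultures 8 astrocyte markers summed to between 190 and 224 FPKM with K27M-Tag and to between 383 and 603 FPKM with WT-Tag, and 6 of the 8 were called lower, where 5.13% of all genes were. Mature oligodendrocyte markers summed to between 5.01 and 8.20 FPKM in K27M-Tag hindbrain cultures and to between 14.4 and 61.6 FPKM in WT-Tag hindbrain cultures, with 3 of 5 tested markers lower. Proliferation markers summed to between 372 and 471 FPKM with K27M-Tag and to between 233 and 460 FPKM with WT-Tag, and none of the 8 was called. Of the 8 neural progenitor markers, 2 were called higher, Vim (log2 change 1.16) and Nes (0.89), where 8.42% of all genes were. Another 2, Fabp7 (-0.77) and Prom1 (-0.35), were called lower. Hindbrain WT-Tag library 1 stood apart from the other WT-Tag hindbrain libraries: its sums were 383 FPKM for astrocyte, 14.4 FPKM for oligodendrocyte and 460 FPKM for proliferation markers. Forebrain WT-Tag library 1, of the same culture letter, had a like profile, at 405, 14.1 and 435 FPKM. WT-Tag forebrain libraries 2 and 3 had 711 and 670 FPKM for astrocyte markers. They had 60.6 and 49.96 FPKM for oligodendrocyte and 308 FPKM each for proliferation markers. The part of these shifts in the members' changes was not tested. Without hindbrain WT-Tag library 1, and with forebrain WT-Tag library 1 kept, all 7 hindbrain calls were still made. In that fit 4212 genes were called in place of 1787.

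Grb10, an adaptor that binds the insulin and IGF receptors and dampens their signal, showed the largest change on the log2(FPKM + 1) scale among the members in cultures of both regions. The ratio of group means was larger for Zdbf2, at 11.1 in hindbrain and 5.37 in forebrain cultures. Those ratios divide by low WT-Tag values, at most 0.137 FPKM in hindbrain and 0.477 FPKM in forebrain cultures, and are imprecise. In hindbrain cultures Grb10 had 23.9, 18.1 and 31.4 FPKM in the K27M-Tag libraries of experiments 1 to 3, against 5.95, 2.16 and 3.51 FPKM in the WT-Tag libraries. In forebrain cultures it had 8.68, 7.87 and 8.06 FPKM with K27M-Tag, against 1.86, 1.65 and 1.17 FPKM with WT-Tag. Neither region's groups overlapped. The log2 change was 2.43 (SE 0.26, adjusted p = 0.000585) in hindbrain and 1.86 (SE 0.26, adjusted p = 0.0081) in forebrain cultures, and the ratio of group means was 6.33 and 5.27. The hindbrain call was made in all 19 alternative fits. The forebrain call was lost without experiment 3 (adjusted p = 0.247), without K27M-Tag forebrain library 1 (0.0542) and without WT-Tag forebrain library 3 (0.0619). Tumors of both genotypes overlapped almost wholly, at 1.40, 5.0045 and 16.7 FPKM (lowest, median, highest) with K27M-Tag and 2.17, 4.55 and 13.1 FPKM with WT-Tag, and the log2 change was 0.00 (95% interval -0.63 to 0.64).

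**Figure D2:**
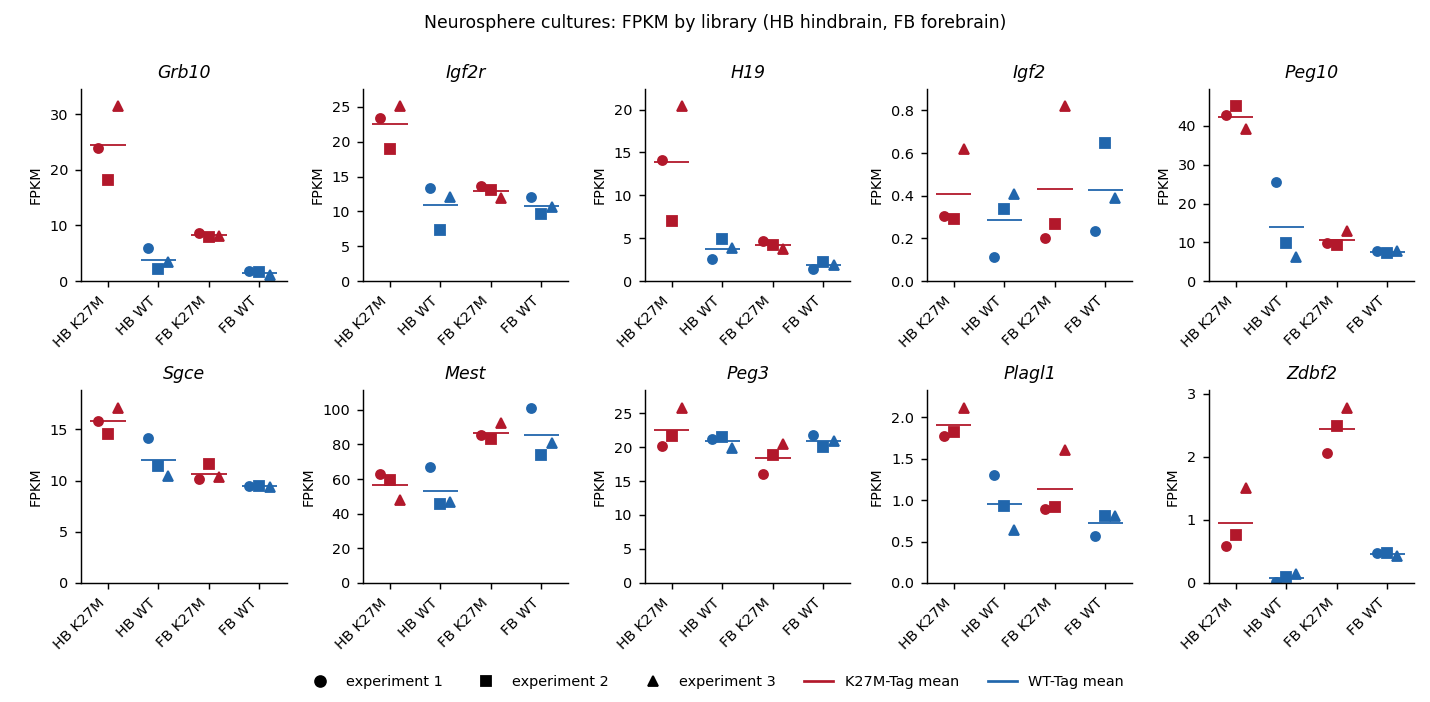
FPKM of each member in the 12 neurosphere libraries, with K27M-Tag in red left of WT-Tag in blue for hindbrain (HB) and forebrain (FB); symbols give the experiment and lines the group mean. For Grb10 all 6 K27M-Tag libraries, at 7.87 FPKM or more, lie above all 6 WT-Tag libraries, at 5.95 FPKM or less, while Peg3 and Mest overlap.

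Igf2r, the scavenger receptor that carries IGF2 to lysosomes, rose in hindbrain cultures and did not pass the threshold in forebrain cultures. Its level was 23.4, 19.03 and 25.1 FPKM in K27M-Tag hindbrain libraries, against 13.4, 7.39 and 12.1 FPKM in WT-Tag hindbrain libraries. The groups were apart, with a log2 change of 1.00 (SE 0.18, adjusted p = 0.00723). Forebrain libraries held 13.7, 13.03 and 11.9 FPKM with K27M-Tag and 12.1, 9.67 and 10.7 FPKM with WT-Tag, which overlap, and the log2 change was 0.23 (adjusted p = 0.62). The difference between the regions' effects was 0.77 (SE 0.26), with an unadjusted p of 0.0122 and an adjusted p of 0.558 in limma. Airn, the noncoding RNA transcribed antisense to Igf2r from the paternal copy, averaged 1.11 ± 0.356 FPKM in K27M-Tag hindbrain cultures and 0.726 ± 0.0848 FPKM in WT-Tag hindbrain cultures (SD, n = 3 each) and was too low to be tested. The strand setting of the counting step is not known from the labels, so reads of Igf2r and Airn may not be separate. In tumors Igf2r had 7.54, 11.7 and 26.3 FPKM (lowest, median, highest) with K27M-Tag and 6.11, 11.5 and 24.04 FPKM with WT-Tag.

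H19, a noncoding RNA made from the maternal copy, and Igf2, the growth factor made from the paternal copy of the same domain, differed in level. H19 had 14.1, 6.96 and 20.4 FPKM in K27M-Tag hindbrain libraries, against 2.59, 4.86 and 3.89 FPKM in WT-Tag hindbrain libraries. In forebrain libraries it had 4.68, 4.25 and 3.70 FPKM with K27M-Tag, against 1.48, 2.19 and 1.83 FPKM with WT-Tag. The groups were apart in both regions, and the hindbrain change of 1.55 (SE 0.30, adjusted p = 0.0091) was called while the forebrain change of 0.88 (SE 0.30, adjusted p = 0.238) was not. Fitted on forebrain libraries alone, the H19 change had an adjusted p of 0.0436. Igf2 lay at 0.82 FPKM or less in every culture, between 0.293 and 0.62 FPKM in K27M-Tag and between 0.112 and 0.406 FPKM in WT-Tag hindbrain libraries, and no change can be read at that level. In tumors H19 spanned 8.17 to 425 FPKM with a median of 70.3 FPKM with K27M-Tag, and 19.2 to 361 FPKM with a median of 58.0 FPKM with WT-Tag. Igf2 in tumors had 0.59, 2.76 and 12.5 FPKM (lowest, median, highest) with K27M-Tag and 0.373, 4.90 and 21.2 FPKM with WT-Tag, with a log2 change of -0.59 (95% interval -1.40 to 0.22, adjusted p = 0.776).

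Peg10 and Sgce are neighbors on chromosome 6 and are both made from the paternal copy. Peg10 is derived from a retrotransposon and is needed for the placenta, and Sgce encodes epsilon-sarcoglycan, a membrane protein whose loss causes myoclonus-dystonia in humans. Peg10 had 42.8, 45.1 and 39.3 FPKM in K27M-Tag hindbrain libraries, against 25.6, 9.76 and 6.24 FPKM in WT-Tag hindbrain libraries. All K27M-Tag libraries were high and close together, and WT-Tag library 1, the one that stood apart, was the highest of its group. The log2 change was 1.76 (SE 0.35, adjusted p = 0.0105). Forebrain libraries held 9.72, 9.43 and 12.996 FPKM with K27M-Tag and 7.67, 7.33 and 7.84 FPKM with WT-Tag, without overlap, and the change of 0.43 (SE 0.35) was not called (adjusted p = 0.635). The effect was larger in hindbrain by 1.33 (SE 0.49, unadjusted p = 0.0204, adjusted p = 0.64). Without WT-Tag hindbrain library 1, the one with the most Peg10 of its group, that difference was 1.86, with an adjusted p of 0.00352 in limma. In that fit 295 genes were called in place of 5. The difference was called in 1 of the 12 fits that left out 1 library, and the adjusted p ranged up to 0.9999. Sgce had 15.8, 14.6 and 17.1 FPKM in K27M-Tag hindbrain libraries, against 14.2, 11.5 and 10.5 FPKM in WT-Tag hindbrain libraries, and a log2 change of 0.38 (SE 0.11, adjusted p = 0.0428). That call was lost in 11 of the 12 fits that left out 1 library, with adjusted p up to 0.153.

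The gene Asb4, an imprinted neighbor of Peg10 that is made from the maternal copy, was higher with K27M-Tag in all 3 settings. It encodes a subunit that gives a ubiquitin ligase its target. Asb4 had 4.71, 4.69 and 3.12 FPKM in K27M-Tag hindbrain libraries, against 0.396, 0.165 and 0.116 FPKM in WT-Tag hindbrain libraries. Forebrain libraries had 2.19, 2.04 and 2.26 FPKM with K27M-Tag, against 0.182, 0.32 and 0.358 FPKM with WT-Tag. Tumors had 1.71, 7.23 and 37.1 FPKM (lowest, median, highest) with K27M-Tag and 0.145, 0.571 and 2.62 FPKM with WT-Tag. In the cultures Asb4 reached 1 FPKM only with K27M-Tag, and in tumors mainly so. It thus passed the filter through the group where it was high. The log2 changes were 2.07, 1.30 and 2.25, with adjusted p of 6.17e-05, 0.00339 and 0.000601, and in tumors 0.0456% of genes were called higher. The oppositely imprinted Peg10 and Sgce had log2 changes of 0.31 and -0.18 in the same tumors, neither of them called. Over the 20 tested genes of a list of neighbors of the 10 members, 4 were higher in hindbrain cultures (Asb4, Pon2, Casd1 and Eef1b2), where 8.42% of all genes were, and 1 was lower (Adam23), where 5.13% were. In forebrain cultures 1 of the 20, Asb4, was called, where 0.182% of genes were called higher. Pon2 and Casd1 lie in the Peg10 region too, with log2 changes of 0.67 (adjusted p = 0.0119) and 0.51 (adjusted p = 0.0236). The median over those 20 genes was 0.20 in hindbrain and 0.16 in forebrain cultures.

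**Figure D3:**
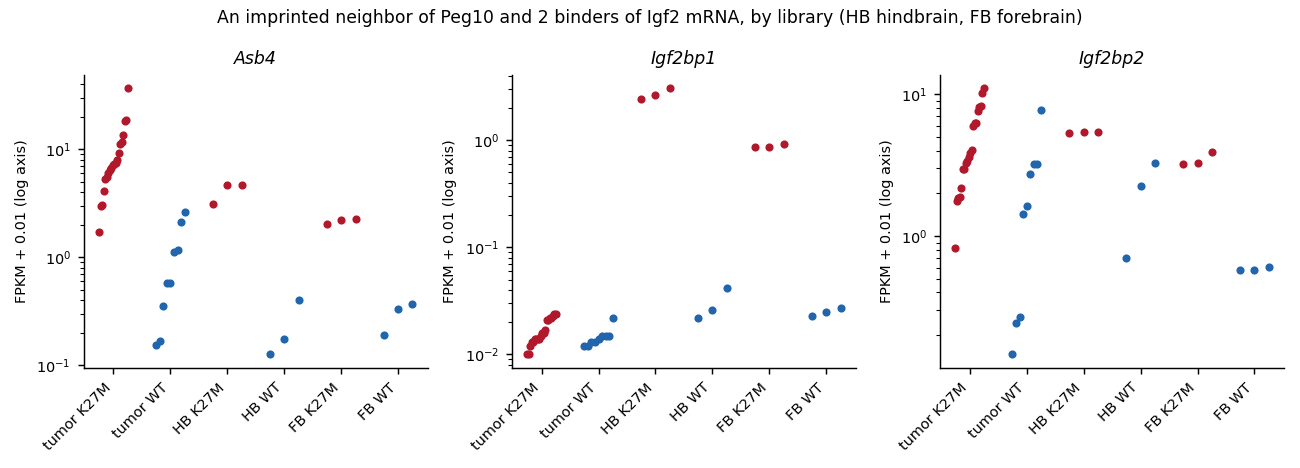
FPKM + 0.01 on a log axis for Asb4, Igf2bp1 and Igf2bp2 in every library of the 6 groups, K27M-Tag in red and WT-Tag in blue. K27M-Tag cultures hold Asb4 at 2.04 FPKM or more and WT-Tag cultures at 0.396 FPKM or less; Igf2bp1 is at 0.014 FPKM or less in every tumor.

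Mest, a paternally expressed gene of the hydrolase fold family that lies elsewhere on chromosome 6, was the most abundant member in the cultures and did not change with K27M-Tag past the threshold in either region. Mest had 63.0, 59.2 and 47.9 FPKM in K27M-Tag hindbrain libraries, against 66.7, 45.5 and 46.8 FPKM in WT-Tag hindbrain libraries. Forebrain libraries had 85.1, 83.0 and 92.4 FPKM with K27M-Tag and 101, 73.9 and 81.0 FPKM with WT-Tag. Both pairs of groups overlapped, and the log2 changes were 0.11 (95% interval -0.26 to 0.47) and 0.04 (95% interval -0.33 to 0.40). The forebrain value turned to -0.0077 under scaling of each library to the same median.

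Plagl1, Peg3 and Zdbf2 encode zinc finger proteins and are made from the paternal copy. Plagl1 is a transcription factor that arrests the cell cycle and acts on other imprinted genes, Peg3 is a DNA-binding regulator of growth and maternal care, and Zdbf2 influences growth after birth through the hypothalamus in mice. Zdbf2 had 0.593, 0.766 and 1.51 FPKM in K27M-Tag hindbrain libraries, against 0.021, 0.1 and 0.137 FPKM in WT-Tag hindbrain libraries. Forebrain libraries had 2.06, 2.50 and 2.78 FPKM with K27M-Tag and 0.467, 0.477 and 0.421 FPKM with WT-Tag. The groups were well apart in both regions. Zdbf2 reached 1 FPKM only with K27M-Tag, so it passed the filter through the group where it was high. On the log2(FPKM + 1) scale the changes were 0.82 (SE 0.17, adjusted p = 0.0111) in hindbrain and 1.24 (SE 0.17, adjusted p = 0.0067) in forebrain cultures, whereas the ratios of group means were 11.1 and 5.37. Those ratios divide by WT-Tag values of 0.477 FPKM or less and are imprecise. The order of the regions turns with the pseudocount: the hindbrain minus forebrain difference was -0.42 with a pseudocount of 1 and 0.28 with 0.1, and neither was called. The forebrain call was lost without WT-Tag forebrain library 3 (adjusted p = 0.0516).

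Plagl1 had 1.77, 1.83 and 2.12 FPKM in K27M-Tag hindbrain libraries, against 1.31, 0.928 and 0.643 FPKM in WT-Tag hindbrain libraries. The log2 change was 0.58 (SE 0.16, adjusted p = 0.0386), and the call was lost in 8 of the 12 fits without 1 library. Forebrain libraries had 0.891, 0.915 and 1.61 FPKM with K27M-Tag and 0.57, 0.809 and 0.806 FPKM with WT-Tag, apart but not called (adjusted p = 0.475). Peg3 did not differ past the threshold. It had 20.1, 21.7 and 25.8 FPKM in K27M-Tag and 21.2, 21.4 and 19.9 FPKM in WT-Tag hindbrain libraries, with a log2 change of 0.10 (95% interval -0.14 to 0.34). In forebrain libraries the Peg3 values were 16.02, 18.8 and 20.5 FPKM with K27M-Tag and 21.7, 20.0 and 20.9 FPKM with WT-Tag (log2 change -0.18, 95% interval -0.42 to 0.06).

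The culture regions themselves differed for these genes, most plainly with K27M-Tag. Among K27M-Tag cultures 5 of 9 members were higher in hindbrain than in forebrain, where 4.47% of genes were, and 2 were lower, where 3.45% were. Grb10 (log2 difference 1.44), Igf2r (0.76), H19 (1.40), Peg10 (1.90) and Sgce (0.53) were higher in hindbrain, and Zdbf2 (-0.84) and Mest (-0.61) were lower. Grb10 and Peg10 kept adjusted p at or under 0.033 in each of the 12 fits that left out 1 library. The calls of H19, Igf2r, Mest, Sgce and Zdbf2 were each lost in some of those fits, Mest in 9 of 12, and without experiment 3 only Peg10 was still called. Among WT-Tag cultures none of the 9 was called by limma, where 1.82% of genes were, and 5 had an unadjusted p under 0.05. The WT-Tag differences had the same sign for those 5, at 0.86 for Grb10, 0.73 for H19, 0.31 for Sgce, -0.42 for Zdbf2 and -0.69 for Mest (adjusted p = 0.0708 for Mest). With the culture letter as a replicate block in the limma fit, Mest was called among WT-Tag cultures (-0.69, adjusted p = 0.0291). Tested directly, the K27M effect differed between regions past the threshold for none of the 9, where 0.0379% of genes did, and 2, Igf2r and Peg10, had an unadjusted p under 0.05. These comparisons share libraries and are not independent of each other.

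Set against hindbrain cultures of the same genotype, the tumors held much more H19 and Igf2 and less Peg10 and Mest on the log2(FPKM + 1) scale. K27M-Tag tumors were higher for H19 (log2 difference 2.20, SE 0.83) and Igf2 (1.42, SE 0.55), where 33.1% of 16803 genes were called higher. They were lower for Grb10 (-2.03), Igf2r (-0.86), Peg10 (-2.50) and Mest (-2.54), where 26.5% of genes were lower. Every K27M-Tag tumor lay under every K27M-Tag hindbrain library for Grb10, Peg10 and Mest, as for 15.8% of the 16803 genes. WT-Tag tumors were higher for H19 (3.63, SE 0.90) and Igf2 (2.14, SE 0.59), where 28.9% of genes were called higher, and lower for Peg10 (-1.05) and Mest (-1.56), where 17.4% were lower. For Mest the WT-Tag groups overlapped, and the ratio of group means was 0.898. There 1 WT-Tag tumor, at 329 FPKM, lay above every WT-Tag hindbrain library. Grb10 in WT-Tag tumors differed from WT-Tag hindbrain cultures by 0.39 (95% interval -0.56 to 1.35). Several of these calls rest on single culture libraries: the Igf2 call in K27M-Tag tumors was lost without any one of the 3 K27M-Tag hindbrain libraries (adjusted p 0.0516 to 0.0869), that of H19 without library 1 or 2 (up to 0.134), that of Mest in WT-Tag tumors without any one of the 3 WT-Tag libraries (0.0798 to 0.151), and that of Peg10 without WT-Tag library 1 (0.374). Tumors also hold cell types that the cultures lack. Microglia and macrophage markers summed to 167 FPKM or more in every tumor and to 0.826 FPKM or less in every culture, and endothelial markers to 22.8 FPKM or more in tumors and 1.15 FPKM or less in cultures. Their part was not tested. The median over all genes moved from 0.10 to -0.06 for K27M-Tag and from 0.16 to -0.08 for WT-Tag when libraries were scaled to the same median, and the share of calls that were higher moved from 55.6% to 44.1% and from 62.3% to 39%.

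The difference between the K27M effects of tumors and hindbrain cultures passed the threshold for none of the 10 members by limma, where 0.583% of genes passed. Grb10 came nearest, with a difference of -2.43 (SE 0.64, adjusted p = 0.08), followed by Igf2r at -1.09 and Peg10 at -1.45, and these 3 had an unadjusted p under 0.05. Without WT-Tag hindbrain library 1, the one with the most Grb10 of its group, the difference for Grb10 was -2.72 with an adjusted p of 0.0401 in limma. In that fit 201 genes were called in place of 98. The Grb10 difference was called in 1 of the 6 fits that left out 1 culture library, and the adjusted p ranged up to 0.513.

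Group means placed the members in different orders over the 6 groups. Grb10 averaged 24.5 ± 6.67 FPKM in K27M-Tag hindbrain cultures, 8.20 ± 0.424 FPKM in K27M-Tag forebrain cultures, 6.15 ± 4.39 FPKM in K27M-Tag tumors (n = 20), 5.92 ± 4.06 FPKM in WT-Tag tumors (n = 9), 3.87 ± 1.92 FPKM in WT-Tag hindbrain cultures and 1.56 ± 0.351 FPKM in WT-Tag forebrain cultures (SD, n = 3 for each culture group). The neighbors from K27M-Tag forebrain cultures down to WT-Tag hindbrain cultures lie within their spread. Peg10 was highest in K27M-Tag hindbrain cultures at 42.4 ± 2.95 FPKM and lowest in the tumors, at 7.401 ± 3.17 FPKM with K27M-Tag and 5.36 ± 1.73 FPKM with WT-Tag. H19 was highest in tumors, with K27M-Tag tumors at 104 ± 104 FPKM, WT-Tag tumors at 93.9 ± 113 FPKM and WT-Tag forebrain cultures last at 1.83 ± 0.357 FPKM.

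Among brainstem tumors Zdbf2 had the smallest unadjusted p of the members. Its level was 0.35, 2.30 and 3.47 FPKM (lowest, median, highest) with K27M-Tag and 0.046, 0.76 and 2.57 FPKM with WT-Tag, and 9 of the 20 K27M-Tag tumors lay above the highest WT-Tag tumor. The log2 change was 0.75 (SE 0.22, 95% interval 0.30 to 1.21), with an unadjusted p of 0.00192 and an adjusted p of 0.316. Plagl1 followed, with 0.472, 1.501 and 2.19 FPKM with K27M-Tag and 0.239, 0.912 and 1.51 FPKM with WT-Tag, and a log2 change of 0.31 (adjusted p = 0.69). Neuron and oligodendrocyte markers were shifted in the same direction, and their part was not tested. Neuron markers summed to 82.2, 465 and 960 FPKM (lowest, median, highest) with K27M-Tag and to 64.9, 269 and 565 FPKM with WT-Tag, and mature oligodendrocyte markers to 436, 980 and 1652 FPKM and to 277, 471 and 1460 FPKM, with all 11 and all 10 markers positive and none called. Peg3 had 16.3, 36.2 and 67.3 FPKM with K27M-Tag and 19.4, 36.6 and 61.8 FPKM with WT-Tag. Peg10 had 0.289, 6.65 and 13.045 FPKM with K27M-Tag and 3.43, 5.53 and 8.24 FPKM with WT-Tag, with 6 of 20 K27M-Tag tumors above the highest WT-Tag tumor. Sgce had 0.561, 10.1 and 19.8 FPKM with K27M-Tag and 5.33, 10.4 and 20.3 FPKM with WT-Tag. Mest had 0.489, 10.2 and 23.9 FPKM with K27M-Tag and 6.47, 10.4 and 329 FPKM with WT-Tag, with a log2 change of -0.87 (95% interval -1.74 to -0.00, adjusted p = 0.692). The medians of Mest and Sgce were close between genotypes, and their lowest K27M-Tag and highest WT-Tag values came from the tumors described next.

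**Figure D4:**
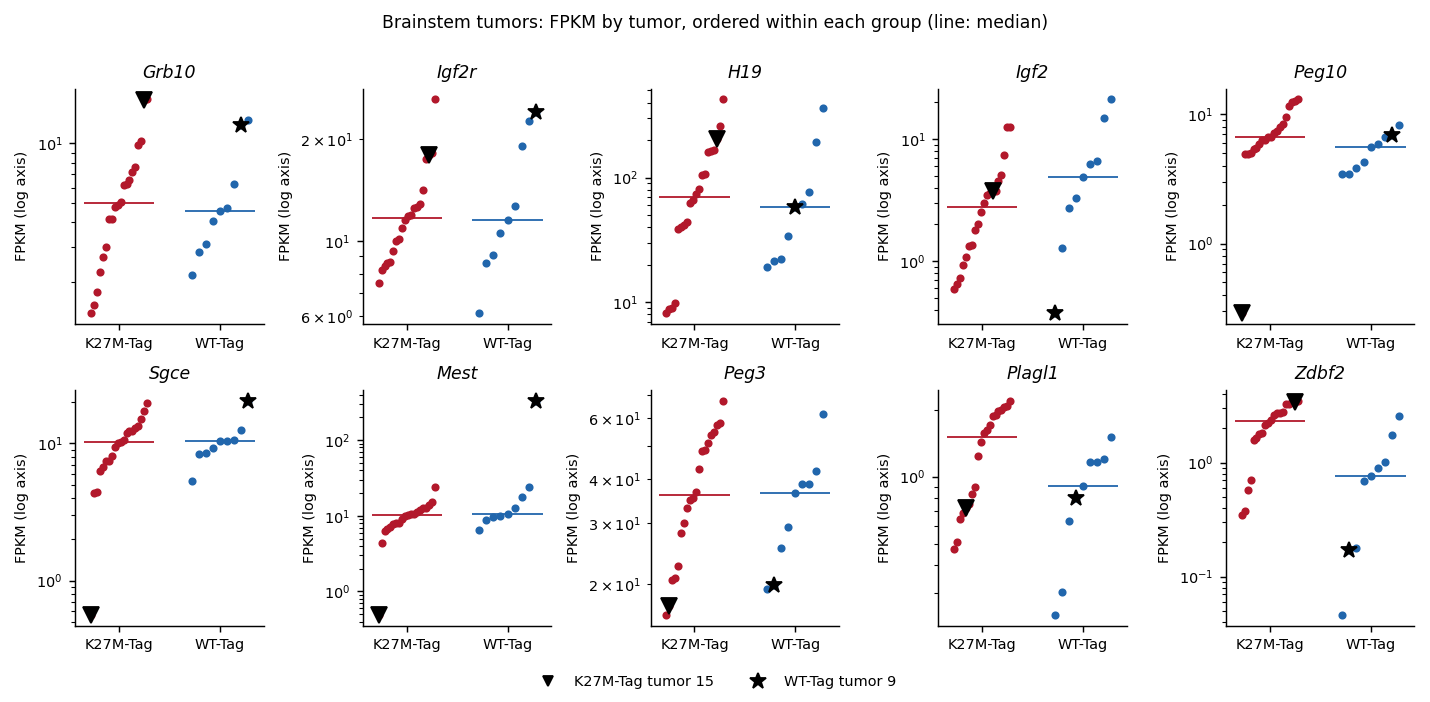
FPKM on a log axis for each member in the 20 K27M-Tag tumors (red) and 9 WT-Tag tumors (blue), ordered within each group, with lines at the medians. The triangle marks K27M-Tag tumor 15, lowest for Peg10, Sgce and Mest, and the star WT-Tag tumor 9, highest for Mest at 329 FPKM.

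A pair of tumors carried unlike values on chromosome 6. K27M-Tag tumor 15 had 0.289 FPKM of Peg10, where the other tumors had 3.43 to 13.045 FPKM. It had 0.561 FPKM of Sgce, where the others had 4.33 to 20.3 FPKM, and 0.489 FPKM of Mest, where the others had 4.42 to 329 FPKM. All 3 are made from the paternal copy. The maternally expressed Asb4 stood at 18.3 FPKM in that tumor, inside the range of 1.71 to 37.1 FPKM of the K27M-Tag tumors, whose median was 7.23 FPKM. Ppp1r9a and Copg2, known to be made mainly from the maternal copy in some mouse tissues, had 5.05 and 12.5 FPKM there, against medians of 11.8 and 17.045 FPKM over all tumors, which is -1.08 and -0.42 on the log2(FPKM + 1) scale. Nap1l5, a paternally expressed gene of the same chromosome named after its values were seen, had 14.1 FPKM, where the others had 39.8 to 322 FPKM. Relative to the median tumor, 605 of 711 tested chromosome 6 genes were lower (85.1%), with a median of -0.55 on the log2 scale, and 12 genes were lower by more than 2. The 6 lowest were Ccnd2, Nap1l5, Mest, Sgce, Peg10 and Vamp1. Chromosome 14 had a median of -0.51 in the same tumor, and K27M-Tag tumor 14 had a chromosome 6 median of -0.55 too; the remaining tumors had -0.15 or more. The cause was not tested.

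WT-Tag tumor 9, one of those that go against their sex label, had 329 FPKM of Mest, and the next WT-Tag tumor had 24.005 FPKM. Mir335, which lies within Mest, had 62.1 FPKM in it and at most 7.62 FPKM in any other tumor. Met, a receptor tyrosine kinase gene of chromosome 6 named after its values were seen, had 1368 FPKM, and the other tumors had at most 3.44 FPKM. Bet1 had 49.6 FPKM, against at most 9.45 FPKM elsewhere, and Sgce was highest of all tumors at 20.3 FPKM. The chromosome 6 median of the tumor was -0.10, so the high values were those of 7 genes above by more than 2. Without WT-Tag tumor 9 and K27M-Tag tumor 15, a choice made after seeing the data, the log2 change of Sgce was 0.081 in place of -0.18, and that of Mest was -0.21 in place of -0.87. No member was called in any of the 36 alternative fits of the tumors.

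**Figure D5:**
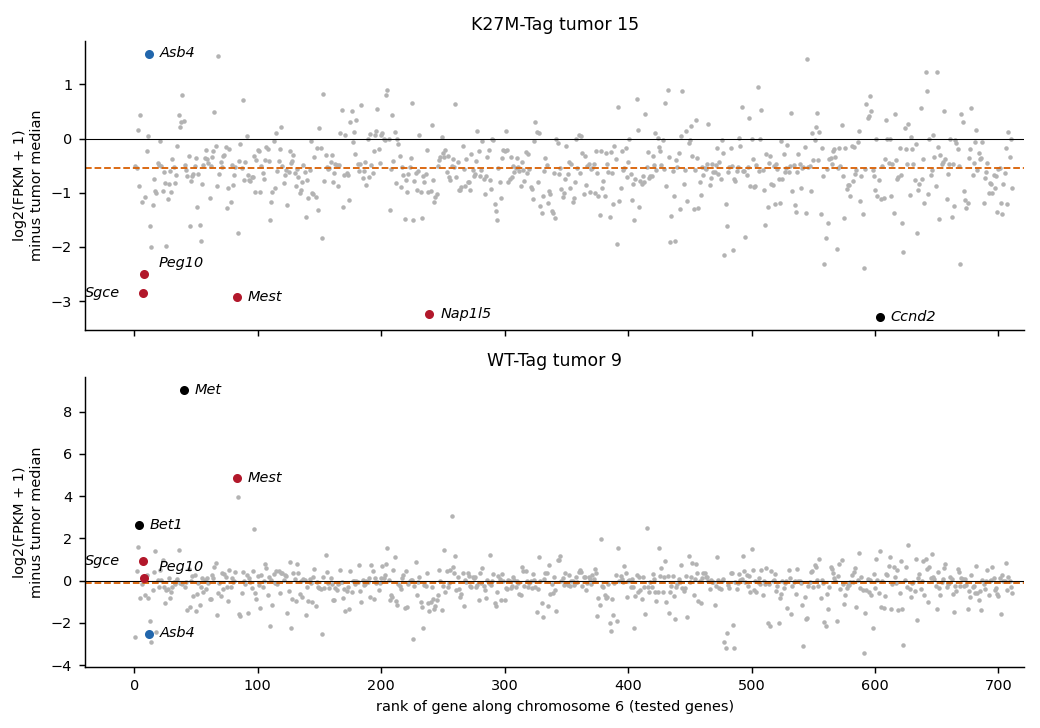
Log2(FPKM + 1) minus the median of all tumors for the 711 tested chromosome 6 genes in their order along the chromosome, in K27M-Tag tumor 15 and in WT-Tag tumor 9; the dashed line is the chromosome median, paternally expressed genes are red and Asb4 blue. Most genes of tumor 15 lie under 0, and Sgce, Peg10, Mest and Nap1l5 are among its 6 lowest with Ccnd2 and Vamp1, while Met and Mest stand out high in tumor 9.

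Genes of insulin-like growth factor signaling, of which Grb10 and Igf2r are part, were listed by role. Of 49 listed genes, 36 could be tested in cultures, and 9 were higher and 1 lower in hindbrain cultures, against 8.42% higher and 5.13% lower over all genes. In forebrain cultures 3 were higher, where 0.182% of all genes were, and none lower, where 0.174% were. In tumors none of 39 was called by limma, where 0.0846% of all genes were. The median log2 change of the tested genes was 0.17, 0.09 and 0.00. All 3 tested receptors rose in hindbrain cultures: Igf2r, the signaling receptor Igf1r (0.82, SE 0.20, adjusted p = 0.0238) and the insulin receptor Insr (0.44, SE 0.13, adjusted p = 0.0495). All 3 RNA-binding proteins that bind Igf2 mRNA rose there as well, Igf2bp1 (1.86, adjusted p = 4.42e-05), Igf2bp2 (1.16, adjusted p = 0.0146) and Igf2bp3 (0.92, adjusted p = 0.00521). Igf2bp1 had 2.39, 2.64 and 3.07 FPKM in K27M-Tag hindbrain libraries, against 0.012, 0.032 and 0.016 FPKM in WT-Tag hindbrain libraries. Forebrain libraries had 0.857, 0.862 and 0.917 FPKM with K27M-Tag and 0.013, 0.017 and 0.015 FPKM with WT-Tag. Igf2bp1 reached 1 FPKM only in K27M-Tag hindbrain cultures, so it passed the filter through the group where it was high. Adaptor Shc1 (0.54) and the protease inhibitor Stc1 (0.70) rose, and the binding protein Igfbp7 fell by 0.84 on the log2 scale in hindbrain cultures. None of the 16 tested downstream kinases, phosphatases and factors was called in either region, and none of the 4 ligands was high enough to be tested in cultures.

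Across libraries, each member was set beside all other tested genes by Pearson correlation of log2(FPKM + 1), as a description over libraries that share genotype and region. Over the 12 cultures Grb10 was most like Rps3a (r = 0.99), Igf2r most like Pbx2 (0.98), H19 most like 1700025G04Rik (0.96), Peg10 most like Clcn5 (0.99) and Plagl1 most like Zbtb10 (0.96). Zdbf2 was most like Dock11 (0.96), Mest most like Snx5 (0.97) and Sgce most like Btbd3 (0.98). Over the 29 tumors Peg10 was most like its neighbor Sgce (0.72), Mest most like Mir335 (0.84) and Peg3 most like Gprasp1 (0.94).

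Relations in tumors were tested for the 45 pairs of members and for each member with 5 marker lists, 95 in all, by two-sided permutation tests with 100000 resamples and Benjamini-Hochberg adjustment over the 95. Of these, 16 had an adjusted p under 0.05 for Pearson's r and 19 for Spearman's rho. Peg3 and the neuron markers were related most closely, with r = 0.85 and rho = 0.86 over 29 tumors (permutation p = 1e-05 for each, the smallest the resamples can give, adjusted p = 0.000475), with r = 0.89 within K27M-Tag tumors, 0.75 within WT-Tag tumors and 0.86 without the 2 tumors farthest from the median. Plagl1 and the neuron markers had r = 0.74 and rho = 0.80 (permutation p = 1e-05, adjusted p = 0.000475), 0.70 within K27M-Tag and 0.82 within WT-Tag tumors, and 0.72 without the 2 farthest. Zdbf2 and the neuron markers had r = 0.60 and rho = 0.56 (permutation p = 0.00071 and 0.00183, adjusted p = 0.00749 and 0.0193), 0.43 within K27M-Tag and 0.94 within WT-Tag tumors, and 0.48 without the 2 farthest. The same 3 genes were related to the mature oligodendrocyte markers. Peg3 had r = 0.72 and rho = 0.72 with them (permutation p = 2e-05 for each, adjusted p = 0.000633 and 0.000475), 0.81 within K27M-Tag and 0.64 within WT-Tag tumors, and 0.73 without the 2 farthest. Plagl1 had r = 0.69 and rho = 0.69 (permutation p = 4e-05 and 6e-05, adjusted p = 0.00076 and 0.00114), 0.68 within K27M-Tag and 0.56 within WT-Tag tumors, and 0.65 without the 2 farthest. Zdbf2 had r = 0.64 and rho = 0.49 (permutation p = 0.00022 and 0.00812, adjusted p = 0.00348 and 0.0425), 0.42 within K27M-Tag and 0.77 within WT-Tag tumors, and 0.50 without the 2 farthest. For these 3 zinc finger genes r was positive with both marker lists within each genotype. Igf2 moved with the pericyte and fibroblast markers (r = 0.55, rho = 0.69, permutation p = 0.00184 and 0.00011, adjusted p = 0.0146 and 0.00174), 0.68 within K27M-Tag and 0.44 within WT-Tag tumors, and 0.72 without the 2 farthest. Igf2r and H19 had r = 0.58 and rho = 0.61 (permutation p = 0.00104 and 0.00059, adjusted p = 0.00988 and 0.00801), 0.57 within K27M-Tag and 0.66 within WT-Tag tumors, and 0.66 without the 2 farthest. H19 was also related to the microglia and macrophage markers (r = 0.51, permutation adjusted p = 0.0299). Igf2r was related to the endothelial markers (r = 0.50, permutation adjusted p = 0.0362). Peg10 and Sgce had r = 0.72 and rho = 0.50 (permutation p = 0.00056 and 0.00595, adjusted p = 0.00665 and 0.0352), and r fell to 0.40 without the 2 farthest and to 0.43 without WT-Tag tumor 9 and K27M-Tag tumor 15. Grb10 and Sgce had r = -0.52 and rho = -0.46 (permutation adjusted p = 0.0208 and 0.0585). Their r was -0.74 within K27M-Tag and 0.44 within WT-Tag tumors, and -0.28 without the 2 farthest. Grb10 and the microglia and macrophage markers had r = -0.51 (permutation adjusted p = 0.035). Peg3, Plagl1 and Zdbf2 had r of 0.56 to 0.68 with each other (permutation adjusted p of 0.000712 to 0.0143).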

How the data were processed

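RNA sequencing libraries of 29 tumors and 12 neurosphere cultures were compared by groups taken from the labels. Per the labels' protocols, RNA was extracted with Trizol, ERCC spike-in RNA was added to the neurospheres, and libraries were made with a TruSeq stranded total RNA kit. The authors deposited 1 table of FPKM values per gene and library; per the submitters' processing notes the tools were CASAVA, TopHat2 and STAR with build mm9, without versions or roles, and the labels name no counting tool. The 10 members and all gene lists were chosen with earlier results of these data known.

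Values were tested as log2(FPKM + 1) with limma 3.58.1 in R 4.3.3 (trended variance), on genes with at least 1 FPKM in at least 9 tumors, 3 culture libraries or, over all groups, 3 libraries. Tumors were fitted alone, the 4 culture groups together, and all 6 groups together for tumors against cultures. P-values were adjusted over all tested genes. Forebrain and hindbrain cultures that share a letter in the labels deviated together with WT-Tag (correlations of deviations from group means 0.67, 0.71 and 0.16) but not throughout with K27M-Tag (0.22, -0.047 and -0.040). A fold on this scale understates the change of low genes. The test was checked on simulated data with independent noise in each library, so the check does not cover cultures that deviate together. The alternatives were other pseudocounts, filters, scalings and weights, blocks, and fits leaving out libraries. Named genes were the members, called genes of the lists, Asb4, and the genes most like each member; the gene most like Peg3 in cultures is not reported here.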

Additional observations from a re-analysis of the deposited data

Results flagged for a closer look

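In WT-Tag tumors, H19 reached 361 FPKM in tumor 27, and the next tumor had 192 FPKM. Mest reached 329 FPKM in tumor 9, and the next had 24.005 FPKM. Sgce reached 20.3 FPKM in tumor 9, and the next had 12.6 FPKM. Each gap, divided by the group's range (0.494, 0.946 and 0.515), was above Dixon's critical value for 9 samples. The 10 members were tested in this way in the WT-Tag tumors, on FPKM and not on the log scale. A chance rate of about 1 in 20 groups holds only for normally distributed values. H19 in these tumors was skewed, with a mean of 93.9 FPKM and a median of 58.0 FPKM, so the rate here is not known.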

How the results depend on the processing

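Over 104 results and 1872 alternatives, 1638 kept their direction and side of the threshold. Members called in hindbrain cultures, 7 in the report, numbered 1 on hindbrain libraries alone and 1 without experiment 3, where Grb10 remained and Zdbf2 did not pass the filter, and 5 to 7 when 1 library was left out. Forebrain calls, 2 in the report, were 0 without experiment 3 and 0 to 2 when 1 library was left out. K27M-Tag region calls, 7 in the report, were 1 without experiment 3 and 2 to 7 with 1 library out; WT-Tag region calls were 1 under median scaling and 0 to 1 with 1 library out. Array weights gave 10 members for K27M-Tag tumors against cultures and 3 for the difference of effects; with 1 library out these were 4 to 5 and 0 to 1, 2 to 3 for WT-Tag tumors, and 0 to 1 for the difference between regions. Tumor calls were 0 throughout. Relations past the threshold numbered 10 within K27M-Tag and 1 within WT-Tag tumors. With a replicate block on experiment id or on culture letter, WT-Tag region calls were 1 (Mest); the block changed no other count of members called.

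Some uncalled changes near 0 turned sign. Without WT-Tag tumors 8 and 9, Igf2r in tumors was 0.044, Sgce 0.00075, Peg3 -0.089 for the tumor minus culture effect, and Plagl1 0.0038 for WT-Tag tumors against cultures. Without WT-Tag tumor 9 and K27M-Tag tumor 15, chosen after seeing the data, Sgce was 0.081 and the Peg3 difference -0.0019. Median scaling gave 0.024 for Igf2r and 0.033 for Peg3 between WT-Tag regions, -0.022 for Igf2r in WT-Tag tumors against cultures, -0.0077 for Mest in forebrain and 0.013 for Zdbf2 (tumor minus culture effect). Without experiment 3, Mest in forebrain was -0.040, Peg3 in hindbrain -0.028 and Peg3 between WT-Tag regions 0.030. A pseudocount of 0.1 gave -0.014 for Grb10 in tumors and 0.28 for Zdbf2 between regions. With 1 library left out, the ranges were -0.11 to 0.16 for Grb10, -0.071 to 0.45 for H19 and -0.20 to 0.027 for Igf2r in tumors, -0.17 to 0.22 for Igf2r and -0.033 to 0.029 for Peg3 between WT-Tag regions, and -0.013 to 0.38 for Igf2r and -0.20 to 0.044 for Plagl1 in WT-Tag tumors against cultures. They were -0.060 to 0.16 for Mest in forebrain, -0.054 to 0.25 for its difference between regions, and -0.043 to 0.13 for Peg3 and -0.20 to 0.12 for Zdbf2 in the tumor minus culture effect. The cause was not tested.

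Counts over all genes also moved. Hindbrain calls, 1787 in the report, were 1045 with no filter, 286 on the region alone, 97 without experiment 3 and 554 to 4212 with 1 library out; median scaling gave 975 higher and 1013 lower, in place of 1111 and 676. Forebrain calls, 47, were 86 under median scaling, 80 on the region alone, 0 without experiment 3 and 20 to 178 with 1 library out. The share of calls that were higher moved under median scaling, at 80% in the report and 100% for the difference between regions, and at 48% and 60.9% for the tumor minus culture effect. Tumor calls, 13, were 26 with no filter, 8 without tumors 8 and 9 and 8 without WT-Tag tumor 27. Calls for the tumor minus culture effect, 98, were 911 with array weights, 363 with no filter and 26 to 201 with 1 culture library out. Calls for the difference between regions, 5, were 8 with no filter, 0 with a pseudocount of 0.1, with either replicate block or without experiment 3, 295 without WT-Tag hindbrain library 1 and 0 to 2 without any other library. Region calls, 1044 with K27M-Tag and 240 with WT-Tag, were 315 and 68 without experiment 3, and 493 to 1474 and 122 to 580 with 1 library out. The limits are 3 cultures per group, the tie of sex to genotype in experiment 3, and an unknown absolute depth.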

Other observations

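A list of 57 other imprinted genes, 54 of them in the table, held 26 that could be tested in cultures. In hindbrain cultures 6 were higher with K27M-Tag, where 8.42% of all tested genes were, and none lower, where 5.13% were. The median log2 change was 0.07 over the 26 and 0.088 over all tested genes. Slc38a4, an amino acid transporter gene made from the paternal copy, averaged 5.48 ± 1.52 FPKM in K27M-Tag and 0.315 ± 0.219 FPKM in WT-Tag hindbrain cultures (SD, n = 3 each), with a log2 change of 2.29 (adjusted p = 7.11e-05 in limma). Among hindbrain cultures Slc38a4 reached 1 FPKM, the level of the filter, only with K27M-Tag, the group where it was high. Cdkn1c, a maternally expressed inhibitor of cyclin-dependent kinases, had a change of 1.19 (adjusted p = 0.0322), Peg12 of 0.94 (0.0379) and Mkrn3 of 0.44 (0.0358). In tumors Ndn, a paternally expressed gene of the Prader-Willi domain, averaged 85.6 ± 24.1 FPKM with K27M-Tag (SD, n = 20) and 42.6 ± 25.1 FPKM with WT-Tag (SD, n = 9), with a log2 change of 1.198 (adjusted p = 0.0466). Ndn and Asb4 were the genes called among the 41 tested in tumors, where 0.0456% of all tested genes were called higher.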
